A study of Mus musculus with 8 samples.

Results

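The LIF and gp130 signalling genes described here are 10 genes that encode a ligand (Lif), its receptor chains (Lifr, Il6st and Osmr), receptor-bound kinases (Jak1 and Jak2), a feedback inhibitor (Socs3) and transcriptional targets (Pim1, Pim3 and Gbx2). They were chosen by their place in the pathway, out of 21427 gene symbols in the count table, and each is represented by its RefSeq record with the highest mean count. RNA was sequenced from 8 mouse iPSC clones, 4 Ctrl (33, 34, 41 and 43) and 4 TKO (35, 37, 47 and 48). TKO clones came from MEFs with the genotype Miwi-/- Mili-/- Miwi2-/-. Ctrl clones came from littermate MEFs, triple heterozygous for these genes by the study's methods and wild type or heterozygous by its legends. All clones shared an Oct4-GFP reporter, a mixed strain background and reprogramming with retroviruses for OCT4, SOX2, KLF4 and c-MYC. They had been passaged fewer than 10 times, in medium that contained added LIF. Colonies were picked onto MEF feeders, so a library may hold feeder RNA, and each clone is a line grown from 1 colony. Ctrl 33, Ctrl 34, TKO 35 and TKO 37 carry numbers in the thirties and the other clones numbers in the forties. The sets are treated as a thirties and a forties clone series, and what the numbers stand for is not given in the labels.

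LIF binds LIFR, which pairs with gp130, the shared signalling chain encoded by Il6st, while oncostatin M uses OSMR with the same chain. The paired receptors activate JAK kinases, which phosphorylate STAT3, and STAT3 enters the nucleus and switches on genes that hold mouse pluripotent stem cells in self-renewal. Its targets include Socs3, whose product blocks the receptor and its kinases and so closes a feedback loop.

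Promoters of these genes are shown first because Socs3, Pim1 and Pim3 are read here as outputs of the pathway and Osmr had the widest range between clones among the members counted at more than 20 reads per library. Each window holds 250 bases before and 50 bases after the start site, from RefSeq (GRCm38.p6), and was placed on mm9 by an exact match of the whole window. Capitals mark the letters TTCNNNGAA, the spaced palindrome bound by STAT dimers, in the windows of Socs3 and Pim1 (Pim1 holds none) and TGANTCA, the palindrome bound by AP-1, in that of Osmr. Being palindromes, they read alike on both strands. The Socs3 window lies at chr11:117830631-117830930 (minus strand), the Pim1 window at chr17:29627480-29627779 (plus strand) and the Osmr window at chr15:6824264-6824563 (minus strand), all in mm9.
Socs3: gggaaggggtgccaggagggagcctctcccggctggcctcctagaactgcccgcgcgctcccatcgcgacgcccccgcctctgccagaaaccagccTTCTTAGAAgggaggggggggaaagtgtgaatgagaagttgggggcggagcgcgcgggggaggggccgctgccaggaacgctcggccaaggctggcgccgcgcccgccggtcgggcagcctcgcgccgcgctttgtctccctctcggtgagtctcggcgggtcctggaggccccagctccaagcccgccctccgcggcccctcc
Pim1: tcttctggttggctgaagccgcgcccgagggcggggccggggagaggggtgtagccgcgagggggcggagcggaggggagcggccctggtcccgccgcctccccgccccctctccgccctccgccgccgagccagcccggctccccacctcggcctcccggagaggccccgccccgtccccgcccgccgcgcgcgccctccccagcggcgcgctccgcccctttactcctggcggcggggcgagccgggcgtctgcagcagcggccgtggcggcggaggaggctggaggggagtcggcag
Osmr: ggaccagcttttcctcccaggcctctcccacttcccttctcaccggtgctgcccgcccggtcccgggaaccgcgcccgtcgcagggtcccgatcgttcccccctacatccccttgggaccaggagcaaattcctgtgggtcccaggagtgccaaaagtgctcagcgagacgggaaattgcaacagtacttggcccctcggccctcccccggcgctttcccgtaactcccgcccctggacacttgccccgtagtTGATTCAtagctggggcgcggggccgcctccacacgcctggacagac
The match in Socs3 is TTCTTAGAA and begins 154 bases before the start site. It was the 1 match to TTCNNNGAA among 12 windows of the 10 members, and 8.3% of all 32851 windows held the letters. TGANTCA was found in 2 of the 12 windows, those of Osmr (TGATTCA, from position 4 after the start) and Lif, against 7.81% of all windows. The windows were rich in CpG. Of the 12 windows, 9 held more than the median of 7 CpG sites over all windows, from 22 in Osmr to 53 in the first window of Lifr. The exceptions were the Lif window (7 sites), the second window of Lifr (4) and the second window of Pim1 (5). The Pim1 window shown is the first, with 42 sites.

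In mm9 the Osmr gene lies on chromosome 15 from 6763577 to 6824313 (minus strand) and Lifr on the same chromosome from 7079559 to 7147489 (plus strand), 255.2 kb apart. Pim3 is also on chromosome 15, from 88692616 to 88696150. Socs3 lies on chromosome 11 from 117827393 to 117831361 and Lif on the same chromosome from 4157560 to 4172517. Il6st lies on chromosome 13 from 113265216 to 113297068, Jak1 on chromosome 4 from 100824972 to 100937887, Jak2 on chromosome 19 from 29326318 to 29387570, Pim1 on chromosome 17 from 29627757 to 29632390 and Gbx2 on chromosome 1 from 91824537 to 91829865. The genes of the kinases and receptor chains span 31.9 to 112.9 kb, whereas Socs3, Pim1, Pim3 and Gbx2 are compact genes of 3.5 to 5.3 kb.

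Total counts ran from 8983203 in Ctrl 33 to 52457455 in TKO 37. Counts were divided by median-ratio size factors and are called normalized counts. TKO 35 and TKO 37 were the deepest libraries and, with Ctrl 41 and Ctrl 43, the closest pairs. The typical squared difference between a pair's counts was 3.38 and 3.54 times that of sampling noise for these pairs and 6.41 to 36.1 times for all other pairs, so no library was counted as a duplicate. The targeted genes were Miwi (Piwil1, from 8.13 to 28.8 normalized counts over Ctrl clones and 2.41 to 4.53 over TKO clones), Mili (Piwil2, 758.5 to 1028 against 3845 to 10080) and Miwi2 (Piwil4, 487 to 769 against 936 to 2862). Mili counts were thus higher in the clones labelled TKO (log2 change 3.10, adjusted p = 0.00165 from edgeR), and Miwi and Miwi2 did not pass (adjusted p = 0.116 and 0.0693). Counts cover whole records and do not show whether the disrupted part of a gene was transcribed, so these values do not check the labels. Of 10 markers of pluripotent cells, 9, among them Pou5f1, Nanog and Sox2, were counted at 413 or more in every clone. The other marker, Esrrb, had 0 to 1.45 normalized counts. Of the 9, Pou5f1 was lower in TKO clones (log2 change -0.61, adjusted p = 0.0380 from edgeR) and the others did not pass between the genotypes. Whole-record counts of Pou5f1 and Sox2 do not separate transcripts of the genes from those of the OCT4 and SOX2 retroviruses. The source of the lower Pou5f1 counts was not tested. The summed level of 15 fibroblast markers ran from 24940 in TKO 37 to 77630 in Ctrl 33, with none at 0 in any clone. Among them Pdgfra (1.70 to 15.3) and Pdgfrb (1.44 to 8.01) were the lowest.

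Levels of the 10 genes were compared per kilobase of the record, since longer transcripts yield more reads. The targets Pim1 and Pim3, which encode serine/threonine kinases that promote survival and growth, stood highest, followed by Socs3. Pim1 had 2810 ± 539 normalized counts per kilobase (SD, n = 8 clones), Pim3 had 1605 ± 253 and Socs3 had 999.7 ± 202. Each stood above the next in 8 of 8 clones. Jak1, the kinase bound to gp130, had 610.2 ± 78.8 and Il6st had 539 ± 66.2 normalized counts per kilobase (SD, n = 8), and their order was not settled, with Jak1 above Il6st in 6 of 8 clones and a mean log2 difference of 0.18 ± 0.32 (SD). Lifr followed with 177 ± 37.8 per kilobase, below Il6st in all 8 clones. Osmr (73.0 ± 33.9) and Gbx2 (68.8 ± 27.9), a homeobox gene induced by LIF in mouse stem cells, did not differ beyond their spread, with Osmr above Gbx2 in 5 of 8 clones. Lif (1.43 ± 1.02) and Jak2 (0.970 ± 0.754) were lowest, at 1 to 17 reads per library.

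**Figure D1:**
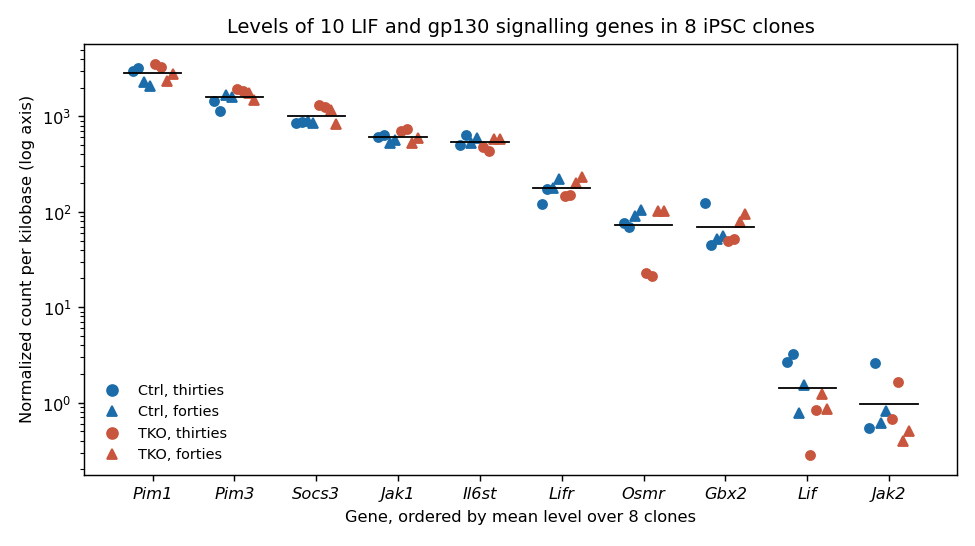
Normalized count per kilobase (log axis) of each gene, in order of its mean over 8 clones. Points are clones, blue for Ctrl and red for TKO, circles for the thirties and triangles for the forties series, and lines are means. Pim1 lies between 2053 and 3567, while Lif and Jak2 do not exceed 3.23.

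The receptor chains were not counted in equal amounts. Per kilobase the ratio of Lifr to Il6st ran from 0.238 in Ctrl 33 to 0.398 in TKO 48. The ratio of Osmr to Lifr was 0.406 to 0.632 in the Ctrl clones, 0.442 and 0.506 in the forties TKO clones, and 0.153 and 0.140 in TKO 35 and TKO 37. So in those last clones Osmr stood lower against Lifr than in any other clone.

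The values of Jak2 and Lif need care. Jak2 had 1 to 17 reads per library and Lif 2 to 9, and both genes have 2 records in the table. Among symbols with 1 record 33.8% had a mean under 10 reads for their highest record, among those with 2 records 44.1%, and among those with 3 or more records 54.2%. In the list of 45 further pathway genes, 2 of 30 genes with 1 record had a mean under 20 reads, against 6 of 15 genes with several records. Stat3, which encodes the central transcription factor of the pathway, has 3 records and had 4.01 to 10.8 normalized counts, and Esrrb, Pdgfra and Pdgfrb have 2 records each. How the authors assigned reads that match several records is not stated, and its part in these low values was not tested. Low counts of Jak2 and Stat3 are therefore not read as low expression. Lifr has 2 records as well, with means of 1920 and 81.6 reads, and the first was used. The same limit holds for its level per kilobase and for its ratios with Il6st and Osmr, which have 1 record each.

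The question of the first comparison was whether loss of the PIWI proteins changed the pathway. No member passed the test between 4 TKO and 4 Ctrl clones. Over 16235 records, edgeR gave an adjusted p under 0.05 to 0 of the 9 tested members, where 0.24% of all records were called, 0.0862% higher and 0.154% lower. DESeq2 and limma-voom also called 0, where they called 3.16% and 0.253% of all records, and so did edgeR with the clone series in the model, where 5.7% of all records were called. At an unadjusted p under 0.05 there were 2 members, where 14.8% of all records were found. Socs3 was 1 member on the higher side (7.42% of all records) and Lif 1 on the lower side (7.39%). Jak2 failed the filter on low counts. The median log2 change of the 9 members was 0.07, and over all records it was -0.01. Among the 9 members, 0 had no overlap between the genotypes, which 8.33% of all records had.

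Among the receptor genes, Lifr averaged 1667 ± 402 normalized counts over the Ctrl clones and 1752 ± 382 over the TKO clones (SD, n = 4 clones each), a log2 change of 0.07 with a 95% interval of -0.38 to 0.52. Il6st had 3065 ± 329 against 2812 ± 391, a log2 change of -0.13 with an interval of -0.40 to 0.15. Both intervals include 0, and that of Il6st is the narrower. Osmr had 409 ± 73.0 against 297 ± 221 normalized counts and a far wider interval, -1.59 to 0.65.

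The kinase gene Jak1 averaged 3080 ± 260 normalized counts over Ctrl and 3387 ± 525 over TKO clones, a log2 change of 0.14 with an interval of -0.14 to 0.42. Among the targets, Pim1 had 4663 ± 967 against 5277 ± 966 (0.18, interval -0.21 to 0.56) and Pim3 had 3541 ± 574 against 4226 ± 481 (0.25, interval -0.05 to 0.56). Gbx2 had 146.5 ± 78.1 against 146 ± 46.2 (0.01, interval -0.78 to 0.81).

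Socs3 was the member with the lowest p between the genotypes. Its normalized counts were 2319, 2363, 2433 and 2355 in Ctrl 33, 34, 41 and 43, and 3569, 3418, 3204 and 2267 in TKO 35, 37, 47 and 48. The 4 Ctrl clones lay close together, 3 TKO clones stood above all of them, and TKO 48 stood below. The mean was 2367 ± 47.9 in Ctrl and 3115 ± 585 in TKO clones (SD, n = 4 each), a log2 change of 0.40 (standard error 0.14, adjusted p = 0.260). The exact two-sided permutation test over 70 arrangements of the clones gave p = 0.143. Without TKO 48 the change was 0.52 and passed (adjusted p = 0.0472).

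**Figure D2:**
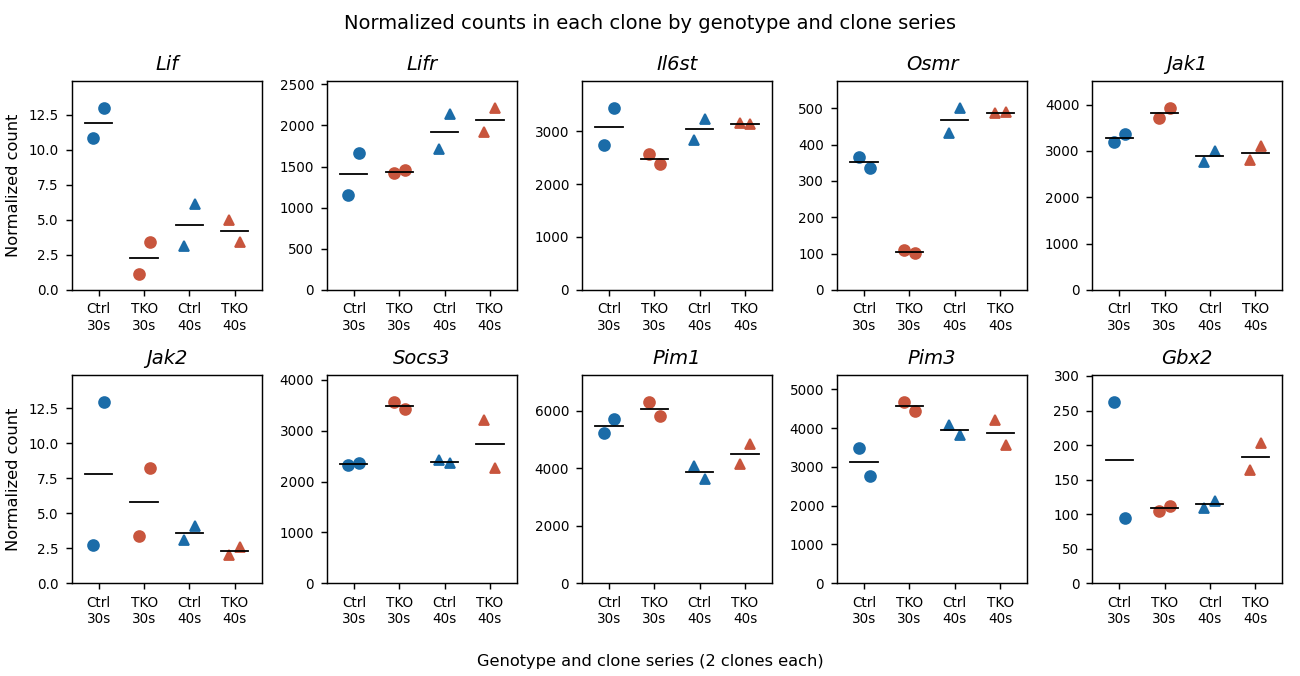
Normalized count of each gene in each clone (linear axes from 0), grouped by genotype and clone series, with a line at the mean of each pair of clones. Osmr drops to 109 and 102 in TKO 35 and TKO 37, and Socs3 reaches 3569 and 3418 in the same clones.

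The second comparison was between the clone series, within genotypes. Of the 9 tested members 4 passed, 2 higher and 2 lower in the forties series. Of all records 19.4% passed, 9.84% higher and 9.56% lower, and 4 of 9 members is read against that share. Also 4 of the 9 members had no overlap between the series, which 16.1% of all records had. These were the same 4 members, Lifr, Osmr, Jak1 and Pim1. For each the exact two-sided permutation test gave p = 0.0286, the smallest that 4 clones against 4 allow, which follows from the lack of overlap. With the series alone in the model 2 members were called, Lifr and Pim1, where 8.7% of all records were. Some markers of primitive endoderm moved with the series. Of 8 primitive endoderm markers 5 were higher in the forties series and 0 lower, with summed levels of 1585 to 1720 in the thirties and 2452 to 3529 in the forties clones. Most of the sum was Lama1, at 1296 to 1467 in the thirties and 2122 to 3157 in the forties clones. Gata4, Gata6 and Dab2 did not pass (adjusted p = 0.932, 0.562 and 0.373 from edgeR). Of 15 fibroblast markers 4 were higher and 0 lower, and Pdgfra is on both lists. The summed fibroblast markers had the same median in both series, 37880, with ranges of 24940 to 77630 and 31910 to 48330 that overlapped, and Col1a1 had a log2 change of -1.01 that did not pass (adjusted p = 0.0680). The part of such cells in the differences between the series was not tested.

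Lifr was higher in the forties series. Its normalized counts were 1157, 1659, 1422 and 1454 in Ctrl 33, Ctrl 34, TKO 35 and TKO 37, and 1714, 2138, 1924 and 2209 in Ctrl 41, Ctrl 43, TKO 47 and TKO 48. Every forties clone stood above every thirties clone, Ctrl 34 and Ctrl 41 being the nearest. The fold was 1.40 (log2 change 0.49, standard error 0.12, adjusted p = 0.0241). Its partner Il6st had a log2 change of 0.16 with an interval of -0.08 to 0.40, and did not pass (adjusted p = 0.320). The difference between Lifr and Il6st themselves, as the ratio of Lifr to Il6st in each clone, did not pass between the series (exact two-sided permutation test, p = 0.0571). The call of Lifr was lost without Ctrl 43, TKO 35, TKO 37 or TKO 48 (adjusted p from 0.0608 to 0.0835).

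Pim1 was lower in the forties series. It had 5220, 5712, 6310 and 5798 normalized counts in Ctrl 33, Ctrl 34, TKO 35 and TKO 37, and 4090, 3631, 4145 and 4855 in Ctrl 41, Ctrl 43, TKO 47 and TKO 48. The highest forties clone, TKO 48, stood below the lowest thirties clone, Ctrl 33. The thirties clones averaged 5760 ± 447 and the forties clones 4180 ± 505 (SD, n = 4 each), a log2 change of -0.46 (standard error 0.08, adjusted p = 0.00650). Pim1 was the member whose call between the series was kept in all 15 alternatives, with adjusted p from 4.45e-05 to 0.0340.

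The related kinase gene Pim3 had 3846 ± 888 and 3921 ± 285 normalized counts in the thirties and forties series and a log2 change of 0.05 (interval -0.24 to 0.35). Per kilobase, the ratio of Pim1 to Pim3 was 1.78 to 2.83 in the thirties clones, and 1.37, 1.30, 1.35 and 1.86 in Ctrl 41, Ctrl 43, TKO 47 and TKO 48. The ranges overlapped through TKO 48, and the ratio did not pass between the series (exact two-sided permutation test, p = 0.0857).

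Jak1 was also lower in the forties series, by a small amount. The thirties clones averaged 3551 ± 333 and the forties clones 2916 ± 163 normalized counts (SD, n = 4 each). The lowest thirties clone, Ctrl 33, had 3188 and the highest forties clone, TKO 48, had 3104. The log2 change was -0.28 (standard error 0.08, adjusted p = 0.0358). The call of Jak1 was lost with no filter on low counts (adjusted p = 0.0512), and without Ctrl 41 or any 1 of the 4 TKO clones (adjusted p from 0.0636 to 0.126). Socs3 had a log2 change of -0.16 (interval -0.43 to 0.11) between the series and did not pass. Lif and Gbx2 did not pass either (adjusted p = 0.691 and 0.851).

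Osmr gave the largest difference between the series among the members that passed. Its normalized counts were 366 in Ctrl 33, 337 in Ctrl 34, 109 in TKO 35 and 102 in TKO 37, and 433, 500.3, 487 and 489 in Ctrl 41, Ctrl 43, TKO 47 and TKO 48. The 4 forties clones lay close together, the thirties Ctrl clones lay below them, and the thirties TKO clones were lowest. The change from thirties to forties was 2.49-fold (log2 change 1.32, standard error 0.32, adjusted p = 0.0204). Without TKO 35, TKO 37 or TKO 47 the call was lost (adjusted p from 0.0503 to 0.0881).

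The third comparison asked whether the genotype change differed between the series. Of the 9 members 1 passed, Osmr, against 1.3% of all records. Its log2 change from Ctrl to TKO was -1.73 among thirties clones (0.301-fold, interval -2.10 to -1.37) and 0.06 among forties clones (interval -0.27 to 0.40). The difference of these changes was 1.80 (standard error 0.22, adjusted p = 0.0197 from edgeR). It rests on 2 clones in each of 4 groups. With a clone left out, 1 group held 1 clone. The difference stayed between 1.70 and 1.90 in these fits, but the call was not kept in all of them.

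**Figure D3:**
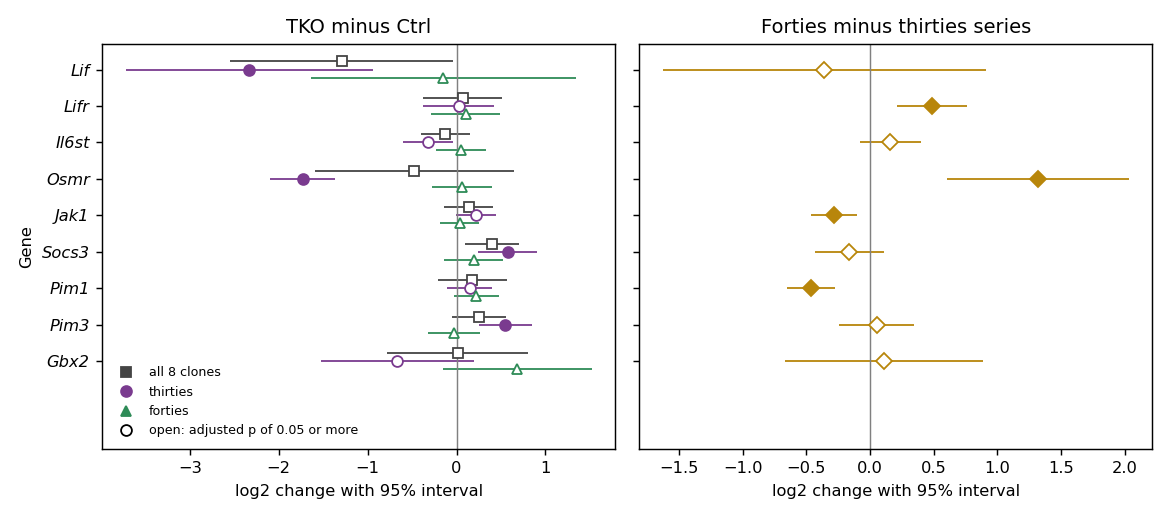
Log2 changes of 9 members with 95% intervals. The left panel gives TKO minus Ctrl over all clones and within each series, and the right panel the forties minus the thirties series. Filled symbols passed an adjusted p of 0.05. For Osmr the thirties symbol stands at -1.73 and the forties symbol at 0.06.

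The summed fibroblast markers followed Osmr in part of the clones only. Their summed level was 77630 and 48810 in Ctrl 33 and Ctrl 34, 26960 and 24940 in TKO 35 and TKO 37, 31910 and 34840 in Ctrl 41 and Ctrl 43, and 48330 and 40920 in TKO 47 and TKO 48. It was lowest in the clones with least Osmr. The clones with the highest sums, Ctrl 33 and Ctrl 34, had less Osmr than any forties clone. In those Ctrl clones the largest parts of the sum were Col1a1 (25810 and 13770) and Col1a2 (21100 and 13230). Single markers differed from the sum. Of the 15, 12 had a positive log2 change from thirties to forties, as Osmr did. Of these 4 passed, S100a4 and Twist1 among them, where 9.84% of all records passed higher. Within the thirties series 11 of the 15 markers were lower in TKO clones and 0 higher, where 7.05% of all records were lower. In the forties series 0 of 15 passed in either direction, where 1.98% of all records passed. There 12 of the 15 had a positive log2 change from Ctrl to TKO. Col5a2, a fibrillar collagen gene, had 9987 and 6550 normalized counts in Ctrl 33 and Ctrl 34 against 2369 and 2361 in TKO 35 and TKO 37. For the difference between the series, 6 of 15 markers passed, all in the direction of Osmr, against 1.03% of all records. The part of fibroblast RNA in the Osmr result was not tested. In bulk RNA, fewer cells of a type cannot be told apart from less RNA per cell.

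The genes whose pattern over the 8 clones lay nearest to that of Osmr, among 10773 compared by centred log2 values, were Cdh11, Csgalnact1 and Ifit2, with root mean square differences of 0.13, 0.16 and 0.16 on the log2 scale. Cdh11, a cadherin of mesenchymal cells, had 570 and 620 normalized counts in TKO 35 and TKO 37 and 1629 to 2744 in the other clones. Csgalnact1, an enzyme of chondroitin sulfate synthesis, had 40.7 and 42.5 in these TKO clones and 134 to 261 elsewhere. The interferon-induced Ifit2 had 26.6 and 20.3 there and 64.8 to 115 elsewhere.

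**Figure D4:**
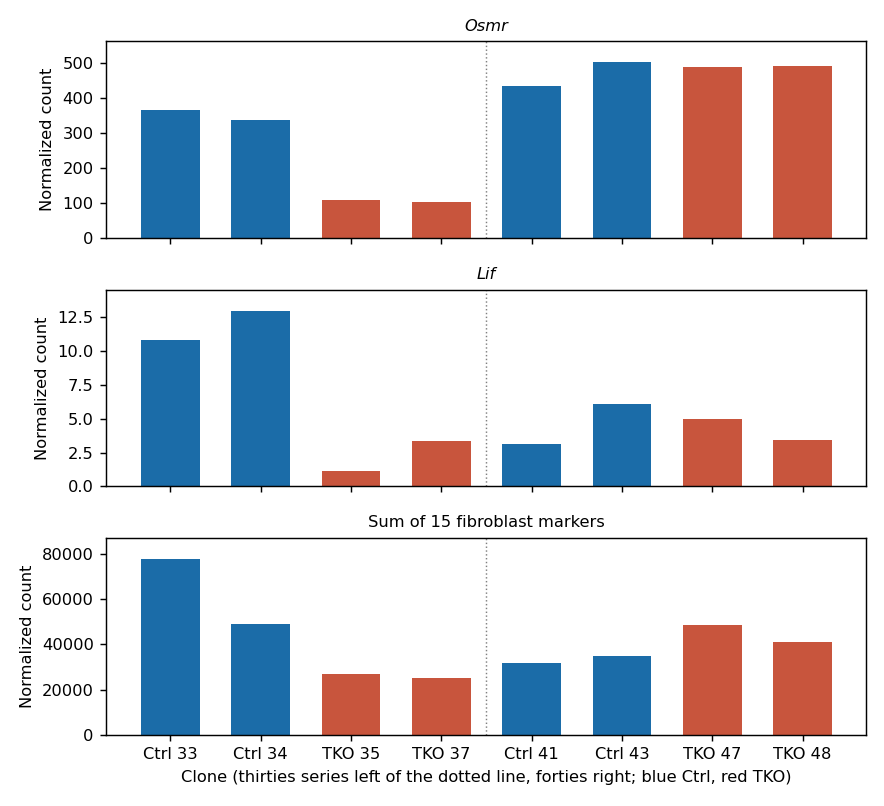
Normalized counts of Osmr (top) and Lif (middle) and the summed normalized counts of 15 fibroblast markers (bottom) in each clone, on axes from 0, blue for Ctrl and red for TKO, with the thirties series on the left. TKO 35 and TKO 37 have the lowest Osmr (109 and 102) and the lowest marker sums (26960 and 24940).

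Within the thirties series, 4 of 9 members passed between TKO and Ctrl clones, 2 higher and 2 lower, where 11.9% of all records passed, 4.83% higher and 7.05% lower. Besides Osmr these were Lif, Socs3 and Pim3, and the call of Lif was lost when its 2 records were summed (adjusted p = 0.129). Socs3 was higher in TKO 35 and TKO 37, with a mean of 3494 ± 107 against 2341 ± 31.3 normalized counts (SD, n = 2 each) and a log2 change of 0.58 (standard error 0.15, adjusted p = 0.0365). Pim3 was also higher there, at 4680 and 4452 against 3489 and 2762 normalized counts, a log2 change of 0.55 (standard error 0.13, adjusted p = 0.0286). In the forties series Socs3 had a change of 0.19 (interval -0.14 to 0.52) and Pim3 one of -0.03 (interval -0.32 to 0.27). There 0 of 9 members passed, where 1.98% of all records passed (0.813% higher, 1.17% lower). The difference between the series did not pass for Socs3 (adjusted p = 0.356) or Pim3 (adjusted p = 0.141). The same 2 TKO clones are those with the lowest fibroblast marker sums, whose part in these changes was not tested.

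The call of Lif within the thirties series depended on which of its 2 records was counted. Its record with more reads had 10.8 and 13.0 normalized counts in Ctrl 33 and Ctrl 34, 1.13 and 3.38 in TKO 35 and TKO 37, 3.12 and 6.11 in Ctrl 41 and Ctrl 43, and 5.01 and 3.42 in TKO 47 and TKO 48. For this record the thirties Ctrl clones stood above all others. The log2 change in the thirties series was -2.33 (standard error 0.62, adjusted p = 0.0416), from 4, 9, 2 and 7 reads in the 4 libraries. The other record had 0 and 0 reads in Ctrl 33 and Ctrl 34 and 3 and 6 reads in TKO 35 and TKO 37. With both records summed, the reads were 4, 9, 5 and 13, and the log2 change of -1.37 (standard error 0.55) did not pass (adjusted p = 0.129). Over all clones the change of the first record was -1.29 (standard error 0.56, adjusted p = 0.327). Because LIF was added to the medium, these counts say nothing of how much ligand reached the cells. The nearest patterns among 10774 genes were those of Tfpi2, a protease inhibitor gene, Col5a2 and the growth factor gene Fgf7, with root mean square differences of 0.39 to 0.43. Col5a2 is 1 of the fibroblast markers. With 2 to 9 reads per library for the Lif record compared, nearness in pattern is a description of few reads.

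Gbx2 set 1 clone apart. It had 263 normalized counts in Ctrl 33, 95.04 in Ctrl 34, 109 in Ctrl 41 and 119 in Ctrl 43, and 105, 112, 164 and 203 in TKO 35, 37, 47 and 48. Ctrl 33 is the smallest library, with 97 reads of Gbx2, and has the highest fibroblast marker sum. Without Ctrl 33 the change between the series was 0.58 and passed (adjusted p = 0.0495), against 0.11 with it (adjusted p = 0.851). The log2 change from Ctrl to TKO did not pass and had no constant sign, from -0.19 without TKO 48 to 0.43 without Ctrl 33. Without Ctrl 34, which left 1 clone in a group, the difference of the genotype change between the series was 1.96. It was 1.35 with Ctrl 34 and did not pass (adjusted p = 0.219). Nearest in pattern were Dll3, a Notch ligand gene, Gng8, a G protein subunit gene, and Rinl, with root mean square differences of 0.22 to 0.23.

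Jak2 had 2.71, 13.0, 3.12 and 4.08 normalized counts in Ctrl 33, 34, 41 and 43, and 3.40, 8.21, 2.00 and 2.57 in TKO 35, 37, 47 and 48. The exact two-sided permutation test gave p = 0.543 between genotypes and p = 0.171 between series. With at most 17 reads, nearness in pattern (to Adap2, Tex19.2 and Slc26a9, at 0.38 to 0.39) is a description of few reads.

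Of 45 further genes of the pathway, 41 passed the filter. Between TKO and Ctrl clones 0 passed edgeR's test, 6 had an unadjusted p under 0.05 (2 higher and 4 lower), where 14.8% of all records did (7.42% higher and 7.39% lower). DESeq2 called 2 of the 41 and limma-voom 0, against 3.16% and 0.253% of all records. With the clone series in the model edgeR called 2, Tyk2 higher (log2 change 0.42, adjusted p = 0.0390) and Clcf1 lower (-1.49, adjusted p = 0.0268), against 5.7% of all records. The median log2 change was -0.03. The genes with the highest mean reads in these roles did not pass edgeR's test (adjusted p from 0.406 to 0.978). They were Ctf1 among ligands (log2 change -0.02), Gab1 among kinases and adaptors (0.09), Ptpn1 among inhibitors (-0.02) and Tfcp2l1 among targets (0.24). In normalized counts the ligand gene Osm averaged 80.7 and Ctf1 80.2.

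Between the series 4 of the 41 passed, again against 19.4% of all records. Pim2, the third kinase gene of the PIM family, was higher in the forties series, with 1350 against 977 normalized counts (log2 change 0.47, adjusted p = 0.00987). The direction was opposite to that of Pim1. Il11, a ligand that signals through gp130, was higher too (69.2 against 23.5, log2 change 1.64, adjusted p = 0.0190). Il6, the ligand that gave its name to the cytokine family, was lower (8.83 against 57.1, log2 change -2.09, adjusted p = 0.0363), and so was Pias1, which encodes an inhibitor of activated STAT proteins (958 against 1481, log2 change -0.61, adjusted p = 0.0122). For Il6 and Il11 the clones of the series overlapped. Il6 had 100.2 and 105 normalized counts in Ctrl 33 and Ctrl 34 but 9.05 and 14.0 in TKO 35 and TKO 37.

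Within the thirties series 9 of the 41 passed, 5 higher and 4 lower in TKO clones, where 11.9% of all records passed, 4.83% higher and 7.05% lower. Among the lower genes were the ligands Il6 (log2 change -3.13, adjusted p = 0.00258), Clcf1 (-2.09, adjusted p = 0.0106) and Osm (-1.95, adjusted p = 0.0289). Il6 had 100.2 and 105 normalized counts in Ctrl 33 and Ctrl 34 and 5.01 to 14.0 in all other clones, TKO and Ctrl. The ligand genes Il11, Ctf1 and Cntf did not pass (adjusted p = 0.385, 0.384 and 0.164). The summed fibroblast markers were lower in the same clones, 26960 and 24940 in TKO 35 and TKO 37 against 77630 and 48810 in Ctrl 33 and Ctrl 34, and their part in these changes was not tested. The 5 higher genes were the kinase gene Tyk2 (0.53, adjusted p = 0.0277), Pias1 (0.55, adjusted p = 0.0185), and the targets Tfcp2l1 (0.49), Mcl1 (0.35) and Fos (1.10).

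Fos, an AP-1 subunit gene induced by many signals, was the 1 pathway gene whose genotype change differed between the series, against 1.3% of all records, 0.265% with a lower change in the forties. It had 368 and 220 normalized counts in Ctrl 33 and Ctrl 34 against 688 and 554 in TKO 35 and TKO 37, and 584 and 661 in Ctrl 41 and Ctrl 43 against 156 and 220 in TKO 47 and TKO 48. The log2 change was thus 1.10 for thirties clones and -1.72 for forties clones (difference -2.83, adjusted p = 0.0197). Within the forties series Fos was the 1 of 41 pathway genes that passed, where 1.98% of all records passed (0.813% higher, 1.17% lower).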

How the data were processed

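RNA-seq read counts of 8 iPSC clones were analysed. The authors made single-end TruSeq libraries, aligned reads with BWA to mouse transcript sequences of GenBank on mm9 (0.7.5a is the BWA version the submitters' notes name) and deposited 1 whole-number count per RefSeq record and library, unscaled and unfiltered, with the record length. The rule for reads that match several records, and for strand, is not given in the sources used here.

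Symbols came from a RefSeq table (GRCm38.p6, names only) and named 26321 of 27052 records. Gene coordinates came from an mm9 annotation. As in the study's methods, the filter kept 16235 records that reached 5 reads in 4 or more libraries, size factors were median-ratio (0.369 to 2.07), and the false discovery rate was 0.05. edgeR 4.0.16 (glmQLFit and glmQLFTest, R 4.3.3) was fitted over all records with genotype alone, with genotype and clone series, and with 4 groups of both. Adjusted p-values are Benjamini-Hochberg values over all records, standard errors come from the log2 change and the F value, and 95% intervals from the t distribution of the fit. Single values were compared by exact permutation tests over 70 arrangements. Patterns of members with an SD of at least 0.5 on the log2(normalized count + 1) scale were compared with genes of at least 50 mean normalized counts. No set test was run.

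Each clone was left out in turn. Summing counts per symbol within the thirties series was added after seeing the data. Other alternatives were DESeq2 1.42.0, limma-voom (limma 3.58.1), TMM scaling, summing counts per symbol, a minimum of 10 reads per library, dropping the filter, and adding the series term or using it alone. The methods were tested on simulated counts. Named genes were the 10 members and the genes nearest in pattern. Of the pathway list they were each gene called in 1 of the 3 comparisons and the gene of each role with the highest mean reads. Results of some genes that this rule names are not reported here. Genes passing within the thirties series were named after their values were seen. The members and lists were chosen with earlier results of these data known. The labels do not tie clones to embryos, so p-values measure the spread between these clones.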

Additional observations from a re-analysis of the deposited data

Results flagged for a closer look

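Gbx2 in Ctrl 33 (263 normalized counts) stood apart from the other Ctrl clones and from the other thirties clones by Dixon's test, and so did Jak2 in Ctrl 34 (13.0 normalized counts, 9 reads) from the other Ctrl clones. In all, 3 of 40 groups of 4 clones were picked out, where chance picks about 5% of groups. For Osmr the change from Ctrl to TKO differed between the clone series by 1.80 on the log2 scale (edgeR interaction, adjusted p = 0.0197).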

How the results depend on the processing

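No paired analysis was possible because Ctrl and TKO clones share no number. The count of members called between TKO and Ctrl was 0 in all alternatives except without TKO 48, where it was 1 (Socs3), so leaving out a clone gave 0 to 1. Over all records 39 were called in the main fit and 83 without TKO 48. The 4 members called between the series became 2 with the series alone in the model and 1 to 5 when a clone was left out. It was 1 without TKO 35 or TKO 37 and 2 without TKO 47 or TKO 48. Calls over all records fell too, from 3149 to 1296 and 1405 without TKO 35 and TKO 37. They fell to 2035 and 2253 without TKO 47 and TKO 48. The 1 member whose genotype change differed between the series was Osmr. Its difference stayed between 1.70 and 1.90 in all alternatives, and its call was not kept in all of them. Leaving out a clone left 1 clone in a group of that fit, so counts of calls are not given for it. Calls over all records also shifted widely there. Of the pathway genes, 2 were called between TKO and Ctrl with DESeq2 and 2 with the clone series in the model, against 0, and 0 when any clone was left out. Between the series 7 were called with DESeq2, 2 with at least 10 reads in every library and 2 with the series alone, against 4, and 2 to 6 when a clone was left out. Over all records these settings called 3913, 2796 and 1413, against 3149. For the difference between the series 5 were called with DESeq2 and 4 without a filter, against 1. Over all records these settings called 934 and 671, against 211. The cause of these shifts was not tested. Within the thirties series the call of Lif was lost when its records were summed (-1.37), an alternative chosen after seeing the data. No called change of a member reversed its direction. Depth limits Lif and Jak2, at 17 reads or fewer per library. With TMM scaling the median of all records moved by less than 0.1 on the log2 scale.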
